A study of Caenorhabditis elegans with 2 samples.

Results

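The 15363 annotated piRNA genes of Caenorhabditis elegans were set against the binding sites of EFL-1, an E2F-family transcription factor, in L1 larvae. Members were every gene of the piRNA biotype on the 6 nuclear chromosomes in Ensembl release 115, and they made up 15363 of the 46890 annotated genes there. The annotation chose them, and no binding value entered the choice. EFL-1 had been measured by chromatin immunoprecipitation and sequencing (ChIP-seq), which recovers the DNA that a protein occupies, in 2 samples. Both samples, labelled biological replicates 2 and 3, were whole L1 larvae of the strain MT10430, which carries the allele lin-35(n745), with animals of mixed sex. They form 1 group, so every value holds for larvae with that allele, and no wild type or other condition was analysed here. lin-35 encodes the worm's retinoblastoma-like pocket protein, a partner of E2F factors.

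In this species piRNAs are also called 21U-RNAs, because they are 21 bases long and most begin with uridine. Each is transcribed by RNA polymerase II from a tiny gene of its own, and the typical gene has an upstream motif, with the core CTGTTTCA or close variants of it, that recruits a dedicated transcription complex. The mature piRNAs guide the Argonaute PRG-1 in the germline, where they silence transposons and other foreign sequence. Most cells of an L1 larva are somatic, and a whole-animal ChIP-seq cannot assign a peak to a cell type. EFL-1, with its partner DPL-1, is known for repressing or activating cell cycle and germline genes from their promoters.

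Most piRNA genes lay in a pair of dense clusters on chromosome IV, the arrangement the species is known for. The left cluster (ce11, chrIV:4813601-6598924) held 2658 piRNA genes in 1.79 Mb, or 1.49 per kb. The right cluster (chrIV:13600031-17267446) held 11510 in 3.67 Mb, or 3.14 per kb. A further 546 lay elsewhere on chromosome IV and 649 on the other 5 chromosomes. All 15363 were 21 bases long in the annotation, with 15363 distinct sequences, and 96.2% began with T. Many overlapped: joined wherever genes of 1 strand shared a base, they formed 11962 separate loci. These exact letters, CTGTTTCA, stood on the same strand in the 60 bases before 39.3% of left-cluster genes, 33.9% of right-cluster genes and 29.5% of the others on chromosome IV. It stood before 6.78% of those on the other 5 chromosomes. Where the core was present, its first base lay most often 46 bases before the 5′ end, in 1741 genes.

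The deposited data were lists of peaks, regions of enriched reads each with a summit. The main list was the authors' joint call from both replicates at their irreproducible discovery rate (IDR) threshold, with 4534 peaks ranked here by the authors' signal, rank 1 being the strongest. The replicates' own lists, each taken to its 4534 strongest regions, served as the replicate check. Read depth is unknown, so no interval that needs it is given. With 1 group there was no contrast to test, and all comparisons below are descriptive, set against protein-coding genes and against all bases of the same region.

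The following windows, each a summit with 100 bases on either side, are shown because these summits have piRNA 5′ ends within 500 bp. All lie over 500 bp from every annotated protein-coding 5′ end. They are written 5′ to 3′, and capitals mark 2 patterns on either strand: GAGAGA, and the E2F core TTCCCGC with its variants TTCGCGC, or TTGCCGC, or TTGGCGC. Only the last window holds an E2F core, GCGGGAA on the strand shown.
Summit ranked 7, chrIV:15570841-15571041, plus strand: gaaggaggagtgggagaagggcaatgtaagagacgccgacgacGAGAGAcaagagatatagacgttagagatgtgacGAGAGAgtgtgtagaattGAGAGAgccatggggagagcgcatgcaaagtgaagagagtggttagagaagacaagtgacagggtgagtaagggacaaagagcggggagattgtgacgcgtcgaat
Summit ranked 1194, chrIV:14356211-14356411, plus strand: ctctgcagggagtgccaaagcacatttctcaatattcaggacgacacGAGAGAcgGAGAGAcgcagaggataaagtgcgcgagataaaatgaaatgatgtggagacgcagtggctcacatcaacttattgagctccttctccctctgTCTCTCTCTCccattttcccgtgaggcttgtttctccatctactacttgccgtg
Summit ranked 1515, chrIV:15696908-15697108, plus strand: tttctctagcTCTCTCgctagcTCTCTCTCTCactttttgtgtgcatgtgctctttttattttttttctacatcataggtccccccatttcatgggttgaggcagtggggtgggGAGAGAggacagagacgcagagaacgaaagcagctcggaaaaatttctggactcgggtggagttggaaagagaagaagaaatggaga
Summit ranked 2161, chrIV:14610954-14611154, plus strand: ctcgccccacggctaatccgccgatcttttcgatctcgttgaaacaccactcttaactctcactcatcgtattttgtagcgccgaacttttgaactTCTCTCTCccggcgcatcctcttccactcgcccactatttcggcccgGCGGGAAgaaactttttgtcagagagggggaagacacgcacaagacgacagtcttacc

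The piRNA genes beside 3 of these summits are shown with the 60 bases before them, to set their sequence next to that of the summits. Capitals mark the core CTGTTTCA and the 21 bases of the piRNA, which end each line. The first pair lies beside the summit ranked 7, the next pair beside that ranked 1515 and the last pair beside that ranked 2161. The last pair, 21ur-11392 and 21ur-10270, overlap and start 4 bases apart behind the same core.
21ur-8889, chrIV:15571175-15571255, plus strand: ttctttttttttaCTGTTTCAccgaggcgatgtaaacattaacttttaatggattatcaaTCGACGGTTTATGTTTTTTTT
21ur-10547, chrIV:15571282-15571362, plus strand: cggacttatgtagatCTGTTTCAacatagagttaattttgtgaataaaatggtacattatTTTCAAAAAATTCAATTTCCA
21ur-8767, chrIV:15697184-15697264, minus strand: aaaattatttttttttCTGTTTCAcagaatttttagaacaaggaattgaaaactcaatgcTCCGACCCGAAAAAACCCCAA
21ur-1867, chrIV:15697262-15697342, plus strand: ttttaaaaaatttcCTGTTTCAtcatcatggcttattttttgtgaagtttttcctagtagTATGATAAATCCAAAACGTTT
21ur-11392, chrIV:14610693-14610773, plus strand: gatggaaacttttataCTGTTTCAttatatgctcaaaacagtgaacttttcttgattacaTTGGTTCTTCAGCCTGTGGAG
21ur-10270, chrIV:14610697-14610777, plus strand: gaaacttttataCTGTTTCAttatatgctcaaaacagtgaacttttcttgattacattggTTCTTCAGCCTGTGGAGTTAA

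The next 3 are the piRNA genes inside the clusters with a summit 1 to 100 bp upstream of the 5′ end on the gene's strand. None of them has the core. The genes above all have it, but not every piRNA gene beside the summits shown does. 21ur-5888, 21ur-15674 and 21ur-14944 beside the summit ranked 2161 lack it. So do 21ur-3019, 21ur-11713 and 21ur-12198 beside that ranked 1194.
21ur-13200, chrIV:16181035-16181115, minus strand: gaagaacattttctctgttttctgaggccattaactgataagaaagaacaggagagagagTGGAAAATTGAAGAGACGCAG
21ur-252, chrIV:15474317-15474397, minus strand: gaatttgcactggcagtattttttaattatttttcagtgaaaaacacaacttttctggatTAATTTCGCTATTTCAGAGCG
21ur-11261, chrIV:5364359-5364439, plus strand: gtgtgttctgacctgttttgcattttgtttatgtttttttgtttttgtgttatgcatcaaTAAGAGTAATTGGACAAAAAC

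Within the clusters few piRNA genes had an EFL-1 summit close by. Of the 14168 piRNA genes there, 182 (1.28%) had an IDR summit within 500 bp of the 5′ end, against 3.05% of all bases of the clusters and 94 of 796 protein-coding genes (11.8%). The replicates gave 1.32% (replicate 2) and 1.25% (replicate 3) of piRNA genes, 3.09% and 2.93% of bases, and 11.8% and 11.4% of protein-coding genes. In both replicates the piRNA genes were therefore the lowest of the 3, and the replicates lay far closer to each other than to the other classes. Over the whole genome, 10.1% of all annotated genes and 16.3% of protein-coding genes had a summit within 500 bp. The 182 genes formed 135 separate loci and rested on 58 nearest summits, with up to 9 genes on 1 summit, so they are not 182 independent events. The control reads and the mappability of the clusters were not analysed here, so a low share is one of called peaks. Counted by locus, 1.25% of the 10811 loci in the clusters had a summit within 500 bp.

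The clusters resembled each other in this respect. In the left cluster 41 of 2658 piRNA genes (1.54%, and 1.81% and 1.62% in replicates 2 and 3 alone) had a summit within 500 bp, against 3.68% of bases. In the right cluster 141 of 11510 did (1.23%, and 1.21% and 1.16%), against 2.74% of bases. On the rest of chromosome IV the share was 19 of 546 (3.48%, and 3.48% and 3.66%) against 4.92% of bases. On the other 5 chromosomes it was 33 of 649 (5.08%, and 5.08% and 5.24%) against 4.44% of bases. In this region alone piRNA genes stood above the bases around them. There 30.8% of piRNA genes but 23.2% of bases lay within 500 bp of a protein-coding 5′ end. The part of this placement in the difference was not tested. Protein-coding genes stood at 12.1%, 11.6%, 18.2% and 16.3% in these 4 regions.

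**Figure D1:**
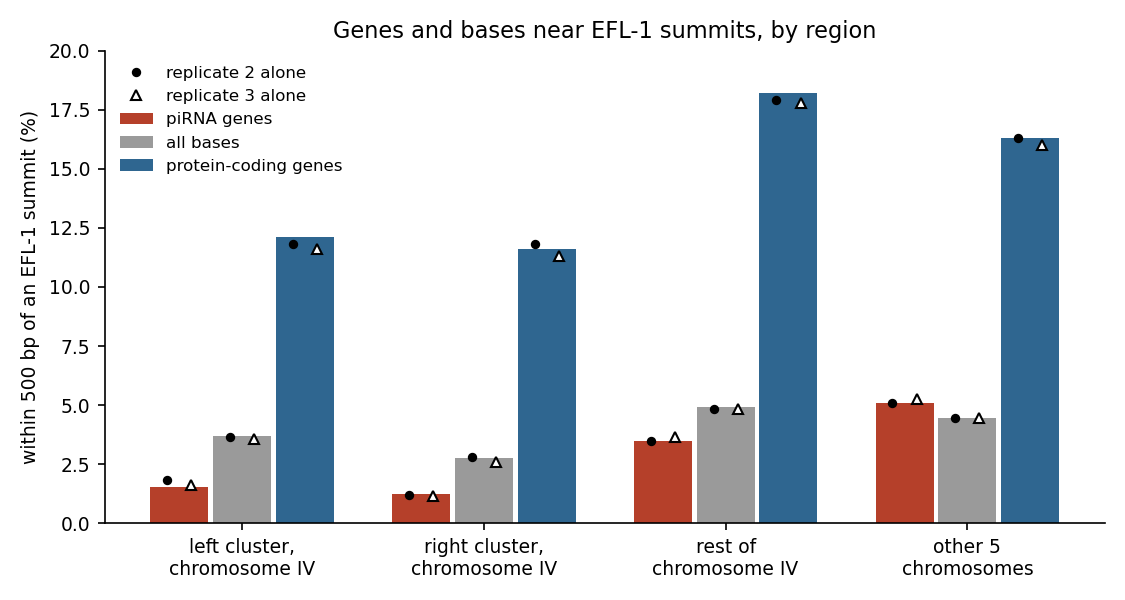
Share (%) of piRNA genes, bases and protein-coding genes within 500 bp of an EFL-1 summit, in 4 regions. Bars are the IDR list, circles and triangles the replicates alone. piRNA genes are below the bases in both clusters (1.54% and 1.23% against 3.68% and 2.74%) and slightly above them on the other 5 chromosomes (5.08% against 4.44%).

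The clusters were also poorer in EFL-1 peaks as a whole. They held 171 IDR summits, 31.4 per Mb, against 50.7 per Mb on the rest of chromosome IV and 45.3 per Mb on the other 5 chromosomes. Replicates 2 and 3 alone placed 173 and 163 summits there. The clusters make up 5.44% of the bases, 3.99% of the protein-coding genes and 3.77% of the IDR peaks, so their share of peaks was close to their share of protein-coding genes. The left cluster had 37.5 summits and 194 protein-coding genes per Mb, the right cluster 28.4 and 123, and the rest of chromosome IV 50.7 and 206. The density of peaks and the density of protein-coding genes thus stood in the same order over these 3 regions.

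The median distance from a piRNA 5′ end to the nearest summit was 12077.5 bp in the left cluster and 18681.5 bp in the right. All bases of the same clusters had medians of 11643 and 16895 bp, and protein-coding 5′ ends of 10599 and 15189.5 bp. The first quartiles lay farther apart: 5067 bp for piRNA genes, 4113 bp for bases and 3561.5 bp for protein-coding genes in the left cluster, and 8250.5, 6514 and 3504.75 bp in the right. On the rest of chromosome IV the medians were 9375.5 bp for piRNA genes, 7912 bp for bases and 6103 bp for protein-coding genes.

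piRNA genes of the clusters lay farther from protein-coding genes than the bases around them. In the clusters 10.9% of piRNA genes but 18.0% of bases lay within 500 bp of a protein-coding 5′ end, and 58.7% of piRNA genes but 46.9% of bases lay over 2000 bp away. Within each class of distance, piRNA genes stayed below the bases. Up to 500 bp from a protein-coding 5′ end, 2.06% of piRNA genes and 7.59% of bases had a summit within 500 bp. Between 500 and 2000 bp the values were 1.33% and 2.45%, and over 2000 bp they were 1.12% and 1.75%. On the rest of chromosome IV the same classes gave 6.45% of piRNA genes against 11.2% of bases, 2.52% against 3.40% and 2.72% against 2.01%, so a gap was present near protein-coding 5′ ends and reversed in the farthest class, which rests on 5 piRNA genes near a summit. On the other 5 chromosomes they gave 11.5% against 10.6%, 2.59% against 3.02% and 1.68% against 2.02%.

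Seen from the summits, piRNA genes were sparse close by. The 171 in-cluster summits lay a median of 1294 bp from the nearest piRNA 5′ end, while the bases of the clusters lay a median of 191 bp away. In the left cluster the medians were 1285 and 315 bp, and in the right 1361.5 and 149 bp. A piRNA 5′ end stood within 100 bp of 4 of the 171 summits (2.34%), against 33.7% of bases, and within 250 bp of 21 (12.3%), against 56.4%. Within 500 bp the count was 60 (35.1%), against 69.1%. Over the genome 2.38% of the 4534 summits had a piRNA 5′ end within 500 bp, most summits lying outside the clusters where piRNA genes are few. The peaks themselves covered 0.868% of the cluster bases and contained 11 piRNA 5′ ends, where the mean density of the clusters would place 123.

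Added up over the 171 summits, 34 piRNA 5′ ends lay within 250 bp, against 213 at the mean density of the same clusters, a ratio of 0.159. The ratio was 0.198 for the summits of replicate 2 alone and 0.183 for those of replicate 3 alone. Density was 0.397 piRNA 5′ ends per kb within 250 bp of a summit and 1.57 per kb from 1000 to 2000 bp, while the clusters averaged 2.49 per kb. The gap therefore had a narrow core, and a shallower deficit reached at least 2000 bp. For the 82 summits within 500 bp of a protein-coding 5′ end, density was 0.243 per kb within 250 bp and 0.927 per kb from 1000 to 2000 bp. For the 89 summits farther away it was 0.538 and 2.16. Around these 89, only 1 piRNA 5′ end lay within 100 bp and 12 lay between 100 and 200 bp, but 39 lay between 200 and 300 bp and 50 between 300 and 400 bp. At 300 to 400 bp the density of 2.81 per kb was at the level of the cluster as a whole.

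**Figure D2:**
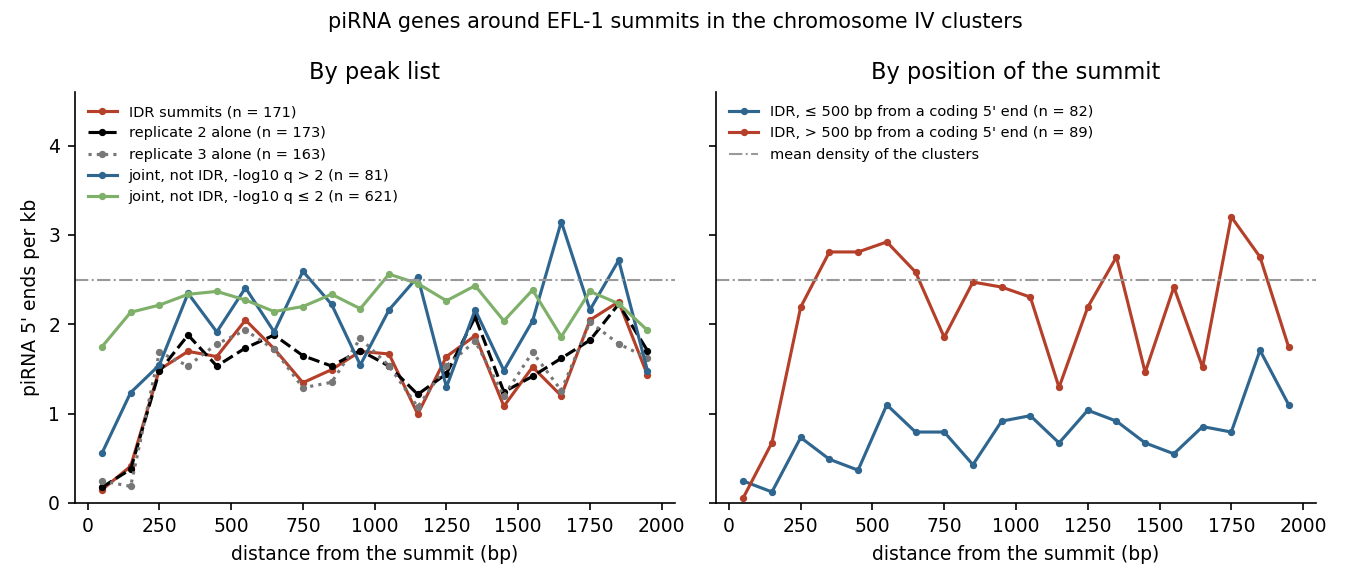
piRNA 5′ ends per kb in 100 bp steps of distance (bp) from summits inside the clusters, by peak list (left) and by the distance of the summit from a protein-coding 5′ end (right). The dash-dotted line is the mean density of the clusters, 2.49 per kb. Lines for the IDR list and both replicates fall towards 0 at the summit, and the line for summits over 500 bp from a protein-coding 5′ end reaches 2.81 per kb at 300 to 400 bp.

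The strength of the peak went with the depth of the gap. In-cluster summits of the stronger 2267 IDR peaks had a ratio of 0.106 within 250 bp (82 summits), and those of the weaker 2267 had 0.210 (89 summits). Strength also went with position. Of the summits within 500 bp of a protein-coding 5′ end 61.0% were among the stronger 2267, against 36.0% of those farther away. Split by that position alone, the ratios were 0.100 and 0.211. Strength and position were not separated by a test. Joint regions outside the IDR list had 0.447 where the authors' −log10 q value was over 2 (81 summits) and 0.807 where it was 2 or less (621 summits). The joint list is described as holding background regions as well as peaks.

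Base composition moved with this result. Windows of 100 bp to either side of in-cluster summits had a median GC content of 40.3% in the left cluster and 43.5% in the right, and piRNA 5′ ends had 28.4% and 27.4%. All bases of the clusters had 32.8% and 30.8%. Against cluster bases of the same GC class (5 percentage points wide), the 34 piRNA 5′ ends within 250 bp of summits compared with 86.8, a ratio of 0.392. Against bases of the same GC class and the same class of distance to a protein-coding 5′ end they compared with 77.2, a ratio of 0.441. The ratio thus moved from 0.159 to 0.392 with bases of like composition, and the count stayed below that of matched bases. For the summits of replicates 2 and 3 alone the ratios to bases of the same GC class were higher, 0.486 and 0.469. Against the same GC class and distance class they were 0.544 and 0.532. For the joint regions outside the IDR list the ratio to bases of the same GC class was 0.962 for −log10 q over 2 and 0.979 for 2 or less. Against the same GC class and distance class these ratios were 1.02 and 1.01. Whether composition also changed how well these regions could be sequenced or called was not tested.

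**Figure D3:**
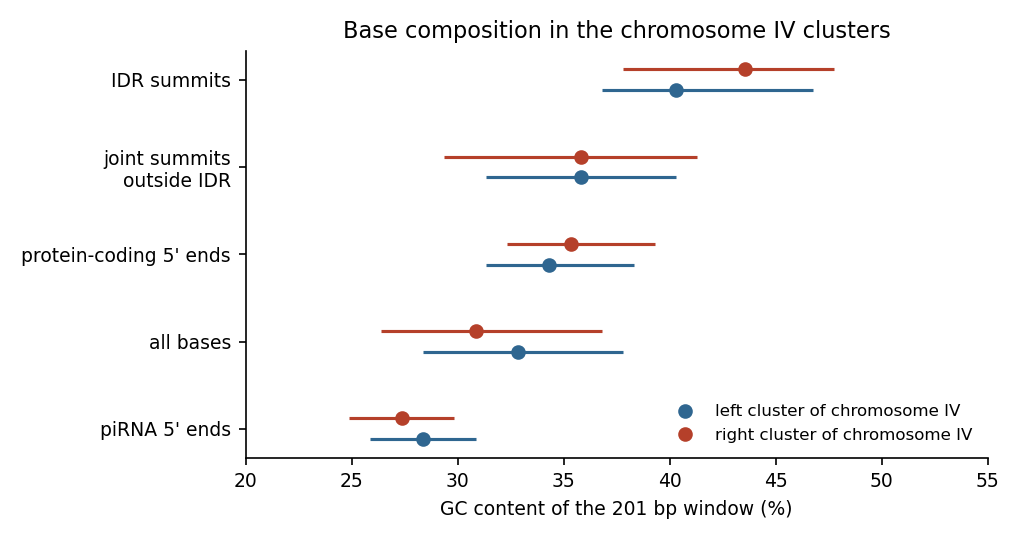
GC content (%) of windows reaching 100 bp to either side of each position in the clusters: points are medians and lines run from the first to the third quartile. The windows of IDR summits have medians of 40.3% and 43.5%, and those of piRNA 5′ ends 28.4% and 27.4%, with all bases between them.

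The protein-coding genes of the clusters showed the same arrangement from their side. Of the 94 with a summit within 500 bp of the 5′ end, 19.1% had a piRNA 5′ end within 500 bp, against 61.4% of the 702 without. Within 2000 bp the former had 0.795 piRNA 5′ ends per kb and the latter 1.88, and 53.2% against 18.5% had none at all. Within 10000 bp the values were 1.31 and 2.03 per kb. This held in each cluster: 19.0% against 53.6% in the left and 19.2% against 67.3% in the right had a piRNA within 500 bp.

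Over 100 kb bins the relation was weak. In the 51 bins inside the clusters, which held 44 to 486 piRNA genes and 0 to 8 summits (median 3), Spearman's rho between the 2 counts was −0.29. Replicates 2 and 3 alone gave −0.24 and −0.31. The bins also traded piRNA genes for protein-coding genes, with rho −0.63, while protein-coding genes and summits gave 0.07. In the 120 bins of chromosome IV wholly outside the clusters, with a median of 5 summits and up to 14, rho between piRNA genes and summits was 0.05. The 4 bins that straddle a limit of a cluster were left out. All these bins share one list and one gene map, so the values are descriptions.

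**Figure D4:**
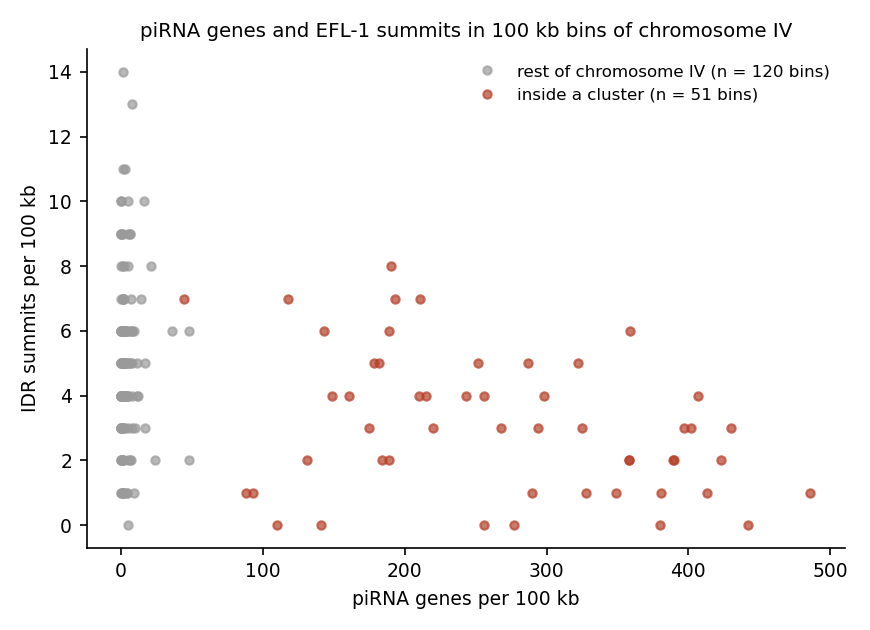
IDR summits per 100 kb against piRNA genes per 100 kb for the bins of chromosome IV wholly inside or outside the clusters, each point a bin; 4 bins across a limit of a cluster are left out. The 51 bins inside the clusters hold 0 to 8 summits across 44 to 486 piRNA genes, and the 120 bins outside hold up to 14 summits with at most 48 piRNA genes.

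The 171 peaks inside the clusters come from a joint call chosen for agreement between these replicates, so their presence in both is no independent check. All 171 were overlapped by a region of both replicates' full lists, which include weak regions. Among the 4534 strongest regions of both replicates 145 (84.8%) had such a region, and 26 did not. Spearman's rho between their ranks in replicates 2 and 3 was 0.92 (n = 171, over peaks already selected by the joint call). By the annotation 118 summits lay between genes, 45 in introns and 8 in exons, with piRNA genes left out of this count. Their median rank was 2456 of 4534, and 82 (48.0%) were among the stronger 2267, so in-cluster peaks sat near the middle of the list. The 82 near a protein-coding 5′ end had a median rank of 1576.5 and the 89 farther away 2793.

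**Figure D5:**
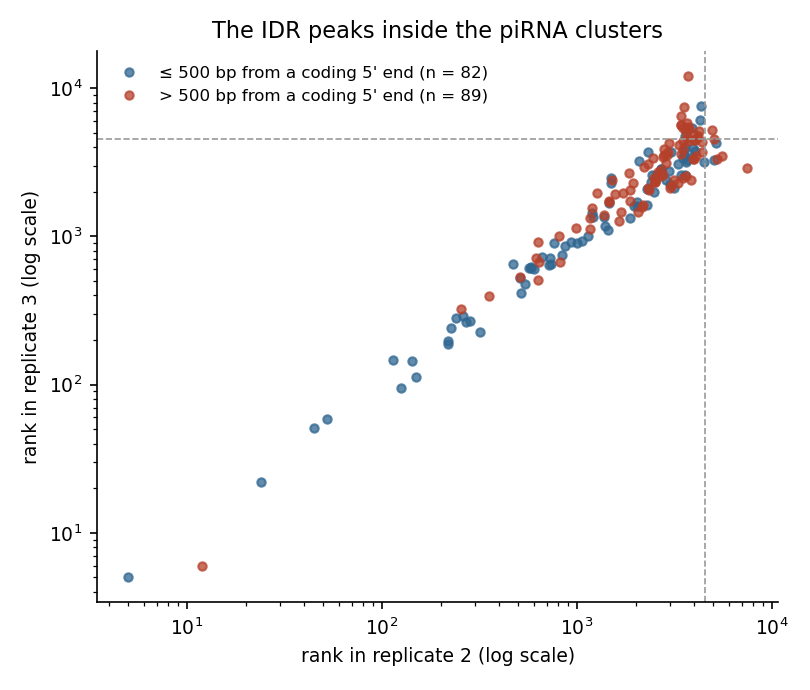
Rank in replicate 3 against rank in replicate 2 of the peaks inside the clusters (log axes, 1 is the strongest); dashed lines mark rank 4534. Summits near protein-coding 5′ ends (blue) and farther away (red) both follow the diagonal, with Spearman's rho 0.92 over all 171.

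The 5 strongest peaks of each cluster, 10 in all, are given here, and 8 of them had the summit within 500 bp of a protein-coding 5′ end. In the right cluster the strongest, ranked 5 in the IDR list and in both replicates (chrIV:14464025-14464457), had its summit 261 bp upstream of dld-1, the dihydrolipoamide dehydrogenase gene. Its nearest piRNA 5′ end, 21ur-3995, was 904 bp away. The peaks ranked 23, 44 and 111 lay at eelo-2, at the rhomboid gene rom-4 and at hrpu-1, which encodes an RNA-binding protein related to hnRNP U. In the left cluster the best ranks were 59 at C49A9.10, 200 at W03F8.4, 204 at the RNA-binding protein gene sqd-1 and 260 at the DNA repair nuclease gene fan-1. Rank 379 lay in an intron, with its nearest protein-coding 5′ end that of smg-3 (a nonsense-mediated decay factor), 3411 bp away. Apart from the peak ranked 7, described next, none of the 10 had a piRNA 5′ end within 500 bp, and their distances to the nearest ran from 514 to 16108 bp.

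The peak ranked 7 of 4534 was the strongest in the clusters away from protein-coding 5′ ends (12 in replicate 2, 6 in replicate 3; chrIV:15570747-15571158). Its summit lay between genes, 6514 bp from the nearest protein-coding 5′ end, that of Y105C5A.1. It was followed on the plus strand by 21ur-8889, 294 bp from the summit, and by 21ur-10547, also within 500 bp, and both have the core CTGTTTCA, as their sequences above show. The interval between the flanking piRNA 5′ ends was 804 bp. The window at the summit was 50.7% GC, against the medians of 28.4% and 27.4% around piRNA genes.

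In all, 47 of the 89 in-cluster summits away from protein-coding 5′ ends (52.8%) had a piRNA 5′ end within 500 bp, against 13 of the 82 near one (15.9%). Of all bases of the clusters, 69.1% have a piRNA 5′ end within 500 bp. These 47 are called here the peaks among piRNA genes, with no annotated protein-coding 5′ end within 500 bp. The term means only that a piRNA 5′ end lies within 500 bp. The 47 had 152 piRNA 5′ ends within 500 bp in all, on both sides of the summit in 28. For 11 of them there was 1 such piRNA, and for another 11 there were 5 or more. The nearest lay a median of 283 bp off, and 200 bp or more in 36 of the 47. Their median rank was 2884.

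After rank 7, the best-ranked of the 47 was rank 734 (630 and 915 in replicates 2 and 3), in an intron of the left cluster, 387 bp from 21ur-10289 and 3647 bp from the 5′ end of the nuclear receptor gene nhr-46. Rank 1037 (983 and 1145) lay 279 bp from 21ur-10291, and rank 1194 (1161 and 1330) 262 bp from 21ur-11713, with 3 piRNA genes within 500 bp each. Rank 1508 (1460 and 1703) lay 287 bp from 21ur-6496, and rank 1515 (1261 and 1960) 196 bp from 21ur-8767. Among these 6 best-ranked peaks no summit was nearer than 196 bp to a piRNA 5′ end, though each lay inside a cluster. The openings between flanking piRNA 5′ ends were 1837 bp at rank 734, 7569 bp at rank 1037 and 526 bp at rank 1194. They were 13787 bp at rank 1508 and 925 bp at rank 1515.

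The next 9 by rank followed the same form. Rank 1565 was 171 bp from 21ur-4052, and its window, 27.9% GC, was the only one of the 15 best-ranked below 35%. Rank 1787 was 293 bp from 21ur-8609 and only 519 bp from the 5′ end of sta-1, a STAT transcription factor gene, just outside the limit of 500 bp. Rank 1844 was 432 bp from 21ur-15008. Rank 1903 (2155 and 1586) lay in an opening of 596 bp with 6 piRNA genes around it, the nearest 21ur-10250 at 270 bp, and was 58.7% GC. Rank 2048 was 248 bp from 21ur-3098, in an opening of 544 bp.

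Rank 2161 (2349 and 2058) had 6 piRNA genes within 500 bp, of which 21ur-10270 was nearest at 297 bp. All 6 lay on the same side of the summit, and the opening between the flanking piRNA 5′ ends was 3125 bp. Rank 2161 was the only one of the 15 with an E2F core in its window. Rank 2203 lay in the narrowest opening of the 15, 370 bp, with 21ur-1215 at 131 bp. Rank 2315 was 274 bp from 21ur-4094, and rank 2456 was 321 bp from 21ur-7423, with 7 piRNA genes within 500 bp. The most crowded in-cluster summit was rank 2782 (2707 and 2825), in an intron with 9 piRNA genes within 500 bp, 21ur-201 the nearest at 223 bp. Across the 15 the nearest piRNA 5′ end was thus 131 to 432 bp from the summit.

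Some of these peaks lay at other noncoding genes. Among the 47, 1 had a tRNA gene as the nearest other noncoding gene within 250 bp, 1 a snoRNA gene, 8 a gene annotated as ncRNA and 1 a lincRNA gene, and 36 (76.6%) had none. Over all 171 in-cluster summits 142 (83.0%) had none, and over the 82 near protein-coding 5′ ends 73 (89.0%) had none. Counted from the genes over the whole genome and within 500 bp, 27.3% of the 612 tRNA genes and 33.5% of the 346 snoRNA genes had a summit, against 1.52% of piRNA genes.

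The sequences at the in-cluster summits differed from those at piRNA genes. An E2F core lay in 16.4% of the 171 summit windows, 18.7% of the 4363 summit windows outside the clusters, 4.95% of the 27127 windows tiled over the clusters and 2.03% of the windows at piRNA 5′ ends. The letters TTTGAA, the CHR element of cell cycle promoters, gave 35.7%, 36.2%, 56.7% and 72.0%. The piRNA core CTGTTTCA gave 1.17%, 0.871%, 16.4% and 41.8%. In-cluster summits were thus close to summits elsewhere in all 3 patterns. These windows were counted on both strands and differ in GC content, and AT-rich letters such as TTTGAA are commoner in AT-rich windows.

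The piRNA genes of the clusters near a summit had the upstream core more often than the rest, in 48.4% of the 182 against 34.7% of the other 13986, with neighbours that share a core counted separately. The difference was not tested. Of the 182, 98.4% began with T against 96.2%. Intron positions made up 30.2% against 34.3%. The median GC content around the 5′ end was 27.4% in both. The summit was upstream of 73 of the 182 on the gene's strand, and 32 of them were also within 500 bp of a protein-coding 5′ end, as were 1550 (10.9%) of all 14168. Only 5 had a summit within 100 bp. The lowest distance, 23 bp, was that of 21ur-13200, beside the summit ranked 3866 (4354 in replicate 2 and 3732 in replicate 3).

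Outside the clusters 52 of 1195 piRNA genes (4.35%) had a summit within 500 bp, on 48 separate summits. This was near the share of bases, 4.92% on the rest of chromosome IV and 4.44% on the other 5 chromosomes. Of the 52, 31 were also within 500 bp of a protein-coding 5′ end, as were 324 of all 1195. The summit was upstream of the piRNA in 37 of 52, against 73 of 182 in the clusters. Among the 1143 outside the clusters without a summit within 500 bp, the nearest summit was upstream of 566. The core CTGTTTCA was present in 3 of the 52 (5.77%), against 17.7% of the other piRNA genes outside the clusters and 48.4% of the 182 in the clusters. These differences were not tested. Of the 52, 33 lay on the other 5 chromosomes, as did 649 of all 1195. There 6.78% of piRNA genes have the core, against 29.5% on the rest of chromosome IV. A second class of piRNAs, without that core, is known in this species to come from short transcripts at the start sites of other genes. Whether any of the 52 belong to it was not tested.

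On the other 5 chromosomes 33 piRNA genes were within 500 bp of a summit, resting on 32 summits. Of the 33, 23 lay within 500 bp of a protein-coding 5′ end, as did 200 of all 649 piRNA genes there. By chromosome the shares were 6 of 98 on I (6.12%), 8 of 109 on II (7.34%), 9 of 78 on III (11.5%), 4 of 202 on V (1.98%) and 6 of 162 on X (3.70%). The summit was upstream of 27 of the 33, with a median position 118 bp before the piRNA 5′ end. Over all 649 the nearest summit, at any distance, was upstream of 339. For the 182 in the clusters the median position was 225 bp after it. Of the 33, 17 had the 5′ end inside an IDR peak, against 11 of the 182 in the clusters. In 15 of the 23 near a protein-coding 5′ end, the piRNA and that gene lay on the same strand. The same count was not made for all 200.

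The 8 nearest on these chromosomes all lay within 500 bp of a protein-coding 5′ end, and none had the core CTGTTTCA. 21ur-13301 on chromosome II began 45 bp after the summit ranked 3389 (3256 and 3761 in replicates 2 and 3) and 1 bp from the 5′ end of dnj-23, a DnaJ chaperone gene. 21ur-13828 on II, beside adal-1, was 51 bp from the summit ranked 3634. 21ur-12807 on II was 82 bp from the summit ranked 146 (133 and 176), beside wee-1.3, a Wee1/Myt1-family kinase gene. Of the 8, 4 lay beside ribosomal protein genes, with 21ur-7304 and 21ur-10581 at the same gene. The share of such genes among all EFL-1 summits was not counted here. 21ur-11631 on I was 73 bp from the summit ranked 360 beside rps-10, and 21ur-12380 on I was 75 bp from the summit ranked 848 beside rpl-19. 21ur-7304 and 21ur-10581, both on III, shared the summit ranked 574 beside rps-21, at 99 and 103 bp. The eighth, 21ur-13014 on III, was 105 bp from a summit beside inf-1, a translation initiation factor eIF4A gene.

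Genome-wide 11 IDR summits had a piRNA 5′ end 1 to 100 bp downstream. Replicates 2 and 3 alone gave 12 to 13. Of the 11 piRNA genes, 6 were on the other 5 chromosomes, 2 on the rest of chromosome IV (21ur-13227 beside ppm-1.H and 21ur-13177 beside Y69A2AR.28) and 3 in the clusters (21ur-252, 21ur-11261 and 21ur-13200). None had the core CTGTTTCA, which 33.5% of all piRNA genes have. By region the share is 6.78% on the other 5 chromosomes and 29.5% on the rest of chromosome IV. It is 39.3% in the left cluster and 33.9% in the right. All but 21ur-13200 lay within 500 bp of a protein-coding 5′ end.

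The genes that make and use piRNAs were looked at as a separate list. Bound here means that at least 1 transcript 5′ end of the gene had a summit of the IDR list no more than 1000 bp before it or 500 bp after it, which was the case for 19.7% of the 19973 protein-coding genes. Of 36 listed pathway genes found in the annotation, 16 (44.4%) were bound, 17 with replicate 2 alone and 16 with replicate 3 alone. The list was drawn up from general knowledge, and the difference from all genes was not tested.

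Of the 12 genes of piRNA transcription, 6 were bound. These included snpc-4 (rank 1195; 1230 and 1158 in replicates 2 and 3) and tofu-5 (rank 2702; 2716 and 2805), which encode members of the complex on the upstream motif. The other members, prde-1 and tofu-4, were not bound, their nearest summits lying 13601 and 3305 bp away. The small nuclear RNA activating complex genes snpc-1.1 (rank 970) and snpc-1.2 (rank 1400), the chromatin remodeller gene isw-1 (rank 116) and the Integrator nuclease gene ints-11 (rank 1542) were bound.

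Of the 10 genes of 5′ processing, 6 were bound. pid-3 (rank 956), tofu-6 (rank 1245) and ife-3 (rank 1104) encode members of a complex that binds piRNA precursors. tost-1 (rank 173; 159 and 185) encodes the subunit that takes the place of PID-1 in a form of this complex with a role outside the piRNA pathway. pid-1, the subunit of the piRNA form, was not bound, its nearest summit lying 8695 bp away. tofu-1 (rank 3187) and tofu-2 (rank 1911) encode parts of the nuclease that cuts the precursor's 5′ end. Also unbound among the genes of 5′ processing were erh-2, slfl-3 and slfl-4, with nearest summits 1735, 1334 and 42651 bp away. Neither gene of 3′ end maturation, parn-1 (the trimming nuclease) or henn-1 (the methyltransferase), was bound.

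Of the 12 genes of the Argonaute step and downstream silencing, 4 were bound: pid-2 (rank 2734), hrde-1 (rank 1952), mut-16 (rank 3806) and simr-1 (rank 610). hrde-1 encodes a nuclear Argonaute and mut-16 a scaffold of the foci that amplify small RNAs. prg-1, the piRNA Argonaute gene itself, was not bound, with its nearest summit 6466 bp away. pid-5 was bound in replicate 2 alone, at rank 4513, just inside the list. For 12 of the 16 the peak also met the rule for a neighbouring gene, as with tofu-1 and ruvb-1 or ints-11 and rpl-10, and a peak cannot be assigned to one of them. The peaks of snpc-4, isw-1, tofu-6 and mut-16 were not shared.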

How the data were processed

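EFL-1 ChIP-seq peak lists on build ce11 from 2 replicates were used. Per the deposited file descriptions, each replicate's list and a joint list, strong and weak regions included, were called against a control, and the IDR list was derived from the joint list. For the aligner, the caller and the IDR threshold, the names and values were not given in the sources used here. The signal value and the −log10 q value of each peak are the authors' own, on the deposited scale, and only ranked or filtered peaks within a list. Lists on ce10 were not used.

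Summits were set against Ensembl release 115 5′ ends and the RefSeq genome of the same build (WBcel235), from which the sequences were read. Clusters were runs of 100 kb bins of chromosome IV with at least 50 piRNA genes, joined if at most 3 bins apart, with at least 1000 genes. GC content and patterns were taken within 100 bp of each position. Distances are to summits, with a window of 500 bp. Each replicate alone means its 4534 regions of highest signal. The distance, cluster and count steps were tested on simulated positions. The pattern and GC steps were not part of that test. Python 3.11.15, numpy 2.4.6, scipy 1.17.1 and matplotlib 3.10.9 were used. The named items are the 15 best-ranked peaks among piRNA genes away from protein-coding 5′ ends, the 5 best-ranked in each cluster, the 8 piRNA genes off chromosome IV nearest to a summit, up to 10 with a summit 1 to 100 bp upstream, and bound pathway genes. 21ur-13200, 21ur-201, the unbound pathway genes and the sequences printed were picked after their values were seen. The members, lists and rules were chosen with earlier results of these data known. Of 38 pathway names, tofu-3 and prg-2 were not matched. Annotated 5′ ends of worm genes are often trans-splice sites, so a promoter can lie farther upstream. Where nothing says the replicates' larvae were grown apart, their spread may be technical.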

Additional observations from a re-analysis of the deposited data

How the results depend on the processing

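No paired analysis was possible because there is 1 group. Replicates 2 and 3 alone gave 177 to 187 near-summit piRNA genes in the clusters (182 reported), 52 to 54 outside (52), 163 to 173 in-cluster summits (171), 43 to 51 of these among piRNA genes (47), 12 to 13 summits just upstream of a piRNA (11), a difference in summits per Mb from the rest of chromosome IV of −17.9 to −19.8 (−19.4), and a ratio within 250 bp of 0.183 to 0.198 (0.159).

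Counts followed the length of the list and the width of the window. For the stronger 2267 IDR peaks, joint regions with −log10 q over 2 and all joint regions, near-summit piRNA genes in the clusters were 50, 305 and 1583, and outside 32, 79 and 228. In-cluster summits were 82 among the stronger 2267 and 873 over all joint regions, and those among piRNA genes 13, 79 and 393. Summits just upstream of a piRNA were 18 with −log10 q over 2 and 109 over all joint regions. The difference in summits per Mb was −10.5, −25.4 and −73.2. Windows of 250 and 1000 bp gave 34 and 460 piRNA genes in the clusters, 29 and 89 outside, and 14 summits among piRNA genes at 250 bp. Taking 1 to 60 or 1 to 200 bp upstream gave 3 and 24 summits. Whole peak intervals gave 281 genes in the clusters. Only piRNA genes with the core gave 88 and 3, and only summits away from protein-coding 5′ ends gave 18 outside. The ratio within 250 bp was 0.106 for the stronger 2267, 0.447 and 0.807 for joint regions outside the IDR list, and 0.392 and 0.441 against matched bases. The difference in summits per Mb stayed negative, and these ratios stayed below the mean density of the clusters or of matched bases. Joint regions outside the IDR list showed no deficit against bases of the same GC class and distance class, with ratios of 1.02 and 1.01.

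The share of cluster piRNA genes near a summit, divided by that of cluster bases, was 0.422 for the IDR list, 0.238 for its stronger 2267, 0.480 for −log10 q over 2 and 0.754 for all joint regions. Other bin limits for the clusters, and an overlap of 50% for shared peaks (153 of 171), moved no count beyond 1.5 times. The ratio within 250 bp itself, its reach of 250 bp and its alternatives were chosen after seeing the data. Depth is unknown, and a region without a peak may hold binding below the calling limit.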

Other observations

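The windows at in-cluster summits were rich in GA repeats, a pattern chosen after the sequences were seen and therefore given as a description. GAGAGA on either strand lay in 86 of the 171 in-cluster summit windows (50.3%), in 59 of the 89 over 500 bp from a protein-coding 5′ end (66.3%) and in 27 of the 82 nearer ones (32.9%). Outside the clusters it lay in 43.1% of the 4363 summit windows, and in 54.3% of the 1760 over 500 bp from a protein-coding 5′ end. It lay in 8.46% of the windows tiled over the clusters and in 4.35% of those at piRNA 5′ ends. Of the 15 best-ranked peaks among piRNA genes, those ranked 1565 and 2456 had none, and that ranked 1903 had the most, with 11 overlapping matches. The windows compared differ in GC content, and the part of that difference in these shares was not tested.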
